A study of Rattus norvegicus with 6 samples.

Results

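The 31 genes described here carry cholesterol into, through and out of the cell: 4 regulators around the transcription factor SREBP2, 19 enzymes of sterol synthesis, 4 genes of uptake and transport inside the cell, and 4 genes of the LXR receptors and the efflux pumps. They were taken by gene symbol from tables of 17315 rows, and all 31 were found. The tables come from adult rat hippocampal neural stem cells (NSCs), a line cloned from adult rat hippocampus. One group was transfected with a control siRNA duplex (siControl) and the other with 1 duplex against *Derl1* (siDerl1), with 3 samples a group, numbered 1 to 3. Both groups were then held for 2 days in medium with bFGF and BMP4, which is used to bring NSCs towards quiescence. Poly(A) RNA was sequenced, and the values are TPM, shares of all transcripts, which are corrected for transcript length and sum to the same total in every sample. Levels of different genes can therefore be set side by side, but the number of reads behind a value is unknown. The sources used here do not say that the samples are separate cultures, so p values measure the spread between these samples, which may be technical.

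*Derl1* encodes a membrane protein of the endoplasmic reticulum (ER) that takes part in the degradation of ER proteins. The proteins that sense sterols sit in the same membrane. When sterols are low, Scap escorts SREBP2 from the ER to the Golgi, where SREBP2 is cut and its free end turns on the genes of sterol synthesis. When sterols are high, the Insig proteins hold Scap in the ER. Oxysterols activate the LXR receptors, which turn on the efflux pumps *Abca1* and *Abcg1* and also *Mylip*, whose product marks lipoprotein receptors for degradation. Lipoproteins of the blood do not pass into the brain, so its cells make their own cholesterol.

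The knockdown and the identity of the cells were read first. *Derl1* (NM_001014202) lay between 122 and 132 TPM in the siControl samples and was at 44.9, 70.8 and 74.0 TPM in siDerl1 samples 1, 2 and 3. The siDerl1 mean was 49.8% of the siControl mean (p = 0.1 in a two-sided exact permutation test, which cannot go lower with 3 samples a group). The log2 fold change was −1.03, and its adjusted p from limma was 0.497, or 0.00884 with the sample number as a block. *Nes* and *Sox2*, markers of NSCs, were above 99 TPM in all 6 samples, while *Prom1*, from the same list of 7, was listed at 0 in all of them. Of 6 oligodendrocyte markers, *Sox10*, *Mbp* and *Cnp* lay between 245 and 787 TPM and *Mog* was listed at 0. Their summed level lay between 1512 and 1781 TPM in siControl and between 1495 and 1912 TPM in siDerl1 NSCs. The 6 astrocyte markers summed to between 493 and 731 TPM in siControl and between 504 and 781 TPM in siDerl1 NSCs, with *Aqp4* and *Aldh1l1* under 1 TPM throughout. The 6 neuron markers summed to 105 to 123 and 115 to 134 TPM in the same groups. Of 7 microglia markers, all but *P2ry12* stayed under 1 TPM. Both samples numbered 1 stood apart from the other 4 on the first principal component, which held 55.7% of the variance.

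Promoters of the sterol genes were searched for the letters of 2 elements known for SREBP2 targets. SREBP2 binds DNA weakly alone and acts beside NF-Y, a factor that binds the letters CCAAT. The RefSeq promoter table for the assembly GRCr8, which holds the bases around each gene start, had an entry for 26 of the 31 genes. It had none for *Pmvk*, *Fdft1*, *Sqle*, *Stard4* and *Abcg1*. CCAAT was found on either strand in 13 of the 16 promoters of synthesis enzymes, or 81.2%, and in 37.5% of the 33469 promoters in the table. Those promoters are not limited to genes expressed in these cells, and a set matched for level was not counted. It was in 3 of 4 promoters of the regulators, in 2 of 3 of the transport genes and in 0 of 3 of *Nr1h2*, *Nr1h3* and *Abca1*. The letters TCACNCCAC, a form of the sterol element that SREBP2 binds, were on neither strand of the 26 promoters and in 1.12% of all promoters. These are matches of letters within this window and not sites shown to be bound. The 250 bases before the gene start are printed for *Hmgcs1*, *Insig1* and *Nsdhl*, chosen after their values were seen. The first pair had an unadjusted p under 0.05 and higher values in siDerl1 NSCs. *Nsdhl* had the largest fold change of the 19 enzymes on log2(TPM + 1) over all 6 samples. The 3 genes differ in the number of boxes. They lie at chr2:53382054-53382303 on the plus strand, chr4:8057770-8058019 on the minus strand and chrX:155817110-155817359 on the plus strand of GRCr8. Each is written 5′ to 3′ along its gene, with CCAAT, or ATTGG where it is on the other strand, in capitals.
Hmgcs1: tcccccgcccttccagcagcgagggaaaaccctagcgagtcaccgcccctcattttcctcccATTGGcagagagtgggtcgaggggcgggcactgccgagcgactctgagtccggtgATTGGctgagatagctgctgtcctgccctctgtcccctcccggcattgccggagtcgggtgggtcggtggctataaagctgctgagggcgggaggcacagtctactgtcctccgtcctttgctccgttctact
Insig1: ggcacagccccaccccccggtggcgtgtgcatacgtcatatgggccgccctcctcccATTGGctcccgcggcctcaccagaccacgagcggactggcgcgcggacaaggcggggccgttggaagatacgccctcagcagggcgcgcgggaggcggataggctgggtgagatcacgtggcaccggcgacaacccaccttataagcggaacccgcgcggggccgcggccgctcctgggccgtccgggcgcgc
Nsdhl: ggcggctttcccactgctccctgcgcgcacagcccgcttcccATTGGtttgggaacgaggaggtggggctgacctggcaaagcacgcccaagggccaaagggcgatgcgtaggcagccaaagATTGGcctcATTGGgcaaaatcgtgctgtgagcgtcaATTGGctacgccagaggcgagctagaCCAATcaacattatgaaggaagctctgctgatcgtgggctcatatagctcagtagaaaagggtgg
*Hmgcs1* holds 2 boxes, which begin 188 and 133 bases before the start, and *Insig1* holds 1, at 193 bases. *Nsdhl* holds 5, from 208 to 65 bases before the start.

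The levels of the sterol enzymes ranged widely in these NSCs. *Fdps*, which makes farnesyl diphosphate, was the highest of the 31 genes, with a mean of 601 TPM over the 6 samples. *Hmgcs1*, *Cyp51*, *Sqle* and *Msmo1* followed, with means between 286 and 324 TPM, and the means of *Insig1*, *Srebf2* and *Npc2* lay between 233 and 245 TPM. The lowest enzymes were *Hsd17b7*, between 14.3 and 19.6 TPM, and *Ebp*, with a mean of 23.5 TPM. Among all genes tested, *Hsd17b7* lay at percentile 32.0 and *Fdps* at percentile 97.7. All 19 enzymes together held 2760 ± 195 TPM in siControl and 2937 ± 234 TPM in siDerl1 NSCs (SD, n = 3 each). The summed level of the 4 LXR and efflux genes was 195 ± 9.26 TPM in siControl and 195 ± 10.8 TPM in siDerl1 NSCs. *Nr1h2*, which encodes LXRβ, was at a mean of 116 TPM, and *Nr1h3*, which encodes LXRα, was the lowest of the 31 at 1.08 TPM. The least variable gene was *Nr1h2*, whose coefficient of variation over the 6 samples was 2.73%, and *Tm7sf2* and *Nr1h3* varied most, with 34.0% and 62.1%.

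**Figure D1:**
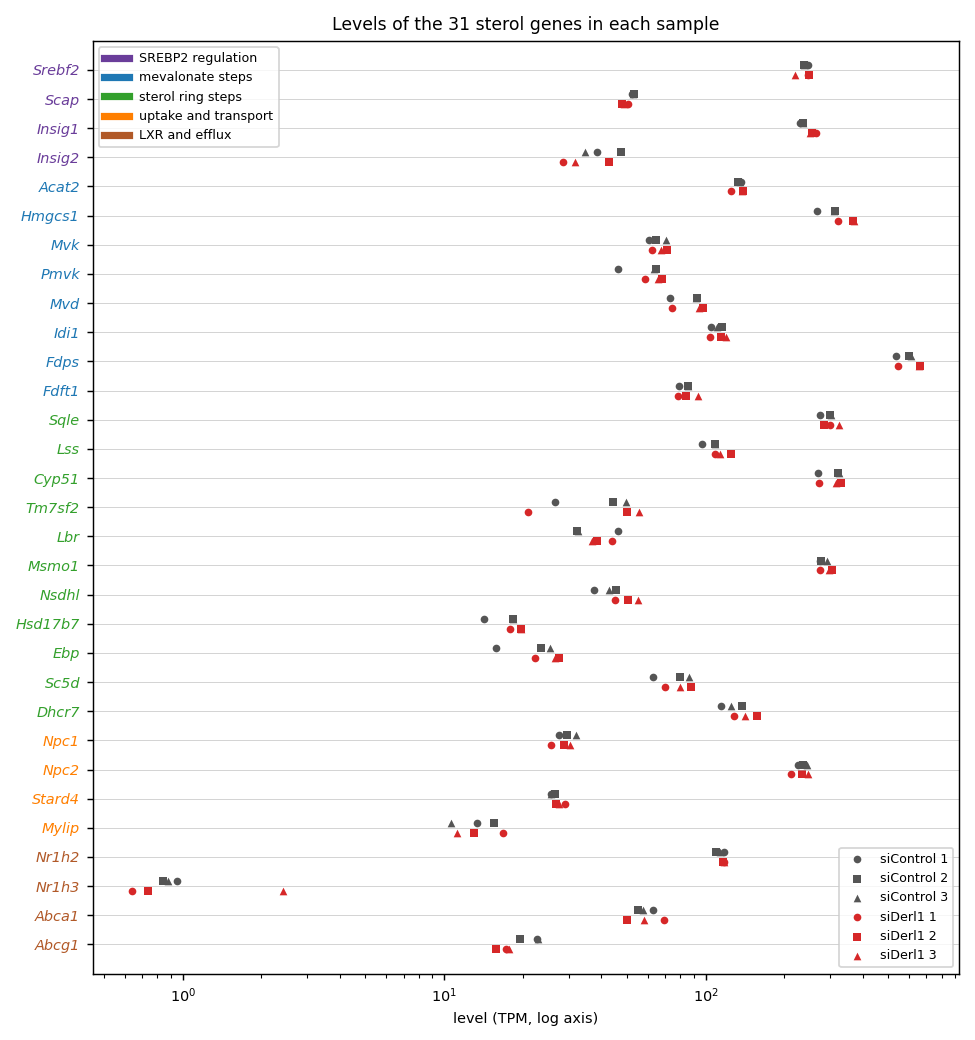
Level of each of the 31 genes (TPM, log axis) in the 3 siControl samples (grey) and the 3 siDerl1 samples (red), with the sample number given by the marker and the role of the gene by the colour of its name. Genes run from *Fdps* at a mean of 601 TPM to *Nr1h3* at 1.08 TPM, and for most genes the 2 groups lie over each other.

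The groups were compared with limma on log2(TPM + 1) over the 10331 genes with a mean of at least 1 TPM, and all 31 sterol genes were among these. *Nr1h3* passed this filter only through siDerl1 sample 3. No sterol gene had an adjusted p under 0.05 from limma, and 0% of all genes tested did. The smallest adjusted p among the 31 was 0.704, and it was 0.0517 once the sample number was added to the model as a block. In that fit 0.552% of all genes had an adjusted p under 0.05, and 0 of the 31. At an unadjusted p under 0.05 without the block, *Insig1* and *Hmgcs1* were higher in siDerl1 NSCs (2 of 31, against 2.67% of all genes) and *Abcg1* was lower (1 of 31, against 4.03%). With the block there were 6 higher, namely *Insig1*, *Hmgcs1*, *Lss*, *Nsdhl*, *Ebp* and *Dhcr7*, against 6.84% of all genes. *Insig2* and *Abcg1* were the 2 lower, against 8.88%. By the limits of the study, a fold change above 1.5 or below 0.8 and an unadjusted p under 0.05, 0 of the 31 were higher, against 0.532% of all genes. *Abcg1* was the only one lower, where 1.37% of all genes were. It was not past these limits without siControl sample 1, siControl sample 3 or siDerl1 sample 2. The groups did not overlap for *Insig1*, *Hmgcs1* and *Stard4*, all higher in siDerl1 NSCs (3 of 31, against 5.09% of all genes), nor for *Scap* and *Abcg1*, both lower (2 of 31, against 8.52%).

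**Figure D2:**
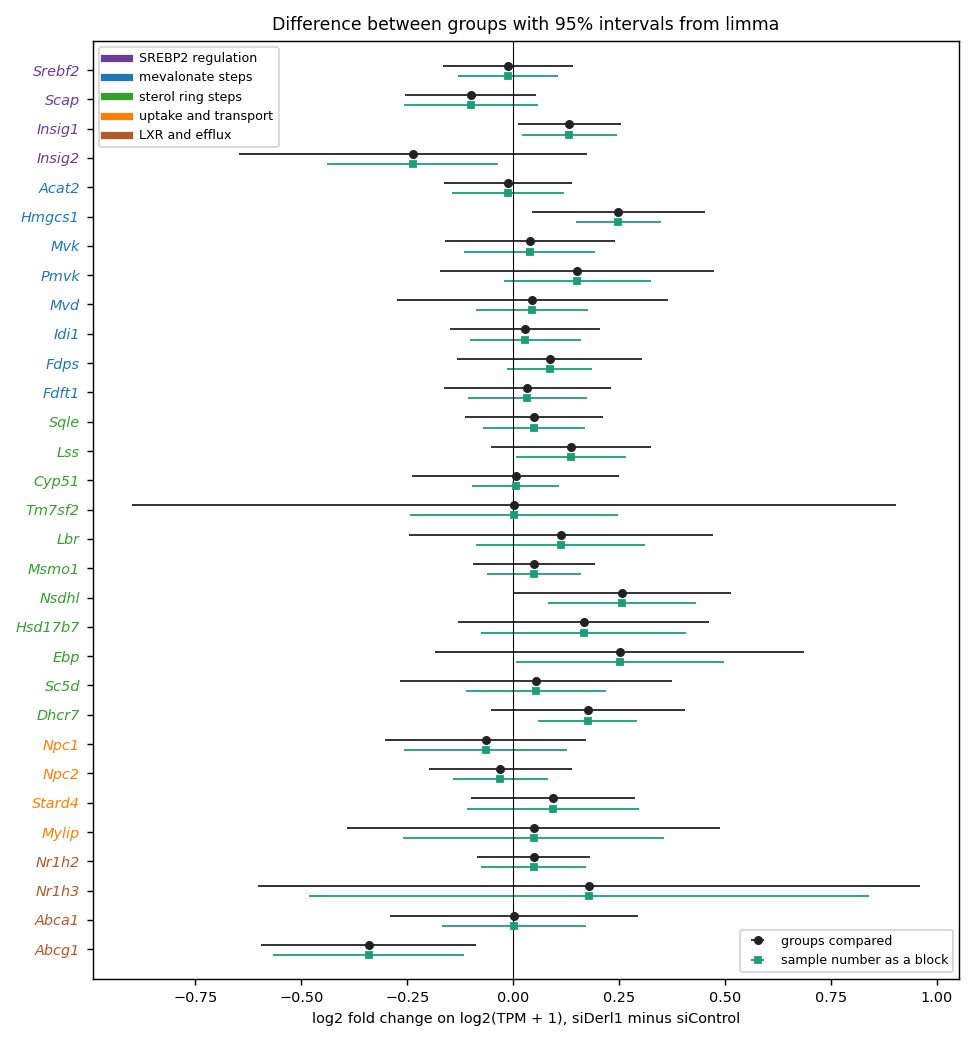
Log2 fold change on log2(TPM + 1), siDerl1 minus siControl, for each of the 31 genes, with 95% intervals from limma for the comparison of the groups (circles) and for the fit with the sample number as a block (squares). The points of 18 of the 19 synthesis enzymes lie above 0, most by less than their interval, and *Abcg1* has the lowest value, −0.34.

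Of the regulators, *Insig1* was higher and *Insig2* and *Scap* were lower in siDerl1 than in siControl NSCs in each pair of samples of the same number. *Srebf2* (NM_001033694), which encodes SREBP2, was at 247, 237 and 238 TPM in siControl samples 1, 2 and 3 and at 248, 249 and 221 TPM in siDerl1 samples 1, 2 and 3. Its groups overlapped, with a log2 fold change of −0.01 (95% interval −0.17 to 0.14). *Scap* (NM_001100966), the escort of SREBP2, was at 52.2, 53.2 and 52.8 TPM in siControl and at 50.4, 48.1 and 48.9 TPM in siDerl1 NSCs. Every siDerl1 value was below every siControl value, by a log2 fold change of −0.10 (95% interval −0.25 to 0.05, adjusted p = 0.817 from limma). *Insig1* (NM_022392), itself a target of SREBP2, was at 230, 237 and 236 TPM in siControl and at 265, 255 and 250 TPM in siDerl1 NSCs. The groups did not overlap, and the means were 234 ± 3.91 and 257 ± 7.65 TPM (SD, n = 3 each). The log2 fold change was 0.13 (95% interval 0.01 to 0.26, adjusted p = 0.713 from limma, 0.242 with the block). *Insig2* (NM_178091), the other Insig gene, was at 38.4, 47.7 and 34.7 TPM in siControl and at 28.4, 42.6 and 31.6 TPM in siDerl1 NSCs. These groups overlapped, since sample 2 was the highest of its group in both, and the pairs differed by −0.42, −0.16 and −0.13 on the log2 scale. The ratio of *Insig1* to *Insig2* was 5.97, 4.96 and 6.80 in siControl samples 1, 2 and 3 and 9.34, 5.98 and 7.91 in the siDerl1 samples. It was higher in the siDerl1 sample of every pair, while the groups overlapped.

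The 8 enzymes of the mevalonate steps build farnesyl diphosphate and squalene from acetyl-CoA. Their log2 fold changes had a median of 0.04, and 7 of 8 were higher in siDerl1 NSCs. *Acat2* (NM_001006995), which joins acetyl-CoA units in the cytosol, was the exception, at 136, 133 and 136 TPM in siControl and 125, 139 and 138 TPM in siDerl1 NSCs. Its groups overlapped, and its log2 fold change of −0.01 became 0.0063 with median-of-ratios scaling, as did that of *Srebf2*. *Hmgcs1* (NM_017268), which makes HMG-CoA in the cytosol, was at 267, 312 and 310 TPM in siControl and at 320, 365 and 370 TPM in siDerl1 NSCs. All siDerl1 values were above all siControl values, and in both groups sample 1 was the lowest. The means were 296 ± 25.5 and 352 ± 27.4 TPM (SD, n = 3 each), a ratio of 1.19. The log2 fold change was 0.25 (95% interval 0.04 to 0.45) and nearly the same in the pairs, with 0.26, 0.23 and 0.25. The adjusted p from limma was 0.704, and 0.0517 with the block, while over all alternatives it lay between 0.0517 and 0.996. *Pmvk*, *Mvd* and *Fdps* were also higher in siDerl1 NSCs in all 3 pairs, with log2 fold changes of 0.15, 0.04 and 0.09. *Mvk*, *Idi1* and *Fdft1* had log2 fold changes of 0.04, 0.03 and 0.03 and pairs of both signs.

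The 11 enzymes of the later steps lead from squalene to cholesterol. The median of their log2 fold changes was 0.11, and 11 of 11 were higher on that scale in siDerl1 NSCs, though *Cyp51* was so by 0.01 and *Tm7sf2* by 0.00, which turned to −0.00077 with a pseudocount of 0.1. *Sqle* (NM_017136), which oxidises squalene at the entry to these steps, was at 275, 299 and 302 TPM in siControl and at 299, 284 and 323 TPM in siDerl1 NSCs. Its groups overlapped and pair 2 went the other way. *Nsdhl* (NM_001009399), which removes methyl groups of lanosterol, was chosen for its values. It had the largest fold change of the 19 enzymes on log2(TPM + 1) over all 6 samples. With a pseudocount of 0.1 *Ebp* was just above it, at 0.263 against 0.262. *Nsdhl* was at 37.3, 45.6 and 42.6 TPM in siControl and at 45.0, 50.3 and 55.3 TPM in siDerl1 NSCs. Only siControl sample 2 reached above the lowest siDerl1 sample, and the log2 fold change was 0.26 (95% interval −0.0004 to 0.51, adjusted p = 0.740 from limma, 0.174 with the block). *Dhcr7*, the last reductase of one branch, was at 115, 138 and 125 TPM in siControl and at 129, 157 and 142 TPM in siDerl1 NSCs. Its groups overlapped, while the pairs differed by 0.17, 0.18 and 0.18 on the log2 scale (adjusted p = 0.769 from limma, 0.167 with the block). *Lss*, which closes the sterol rings, was at 97.2, 109 and 109 TPM in the siControl samples and at 108, 125 and 113 TPM in the siDerl1 samples. *Ebp*, a sterol isomerase, was at 15.7, 23.5 and 25.4 TPM in the siControl samples and at 22.3, 27.6 and 26.5 TPM in the siDerl1 samples. The groups of both overlapped. With *Hsd17b7* they were higher in siDerl1 NSCs in all 3 pairs too, with log2 fold changes of 0.14 for *Lss*, 0.25 for *Ebp* and 0.17 for *Hsd17b7*. *Lbr*, *Msmo1* and *Sc5d*, at 0.11, 0.05 and 0.05, had pairs of both signs.

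Over the 19 enzymes of both stretches, 18 had a higher value in siDerl1 NSCs, where 45.2% of all genes tested did, and the median log2 fold change was 0.05, beside −0.02 for all genes. In pairs 1, 2 and 3, 13, 16 and 16 of the 19 were higher, with medians of 0.04, 0.13 and 0.10. Of all 10331 genes tested, 5357, 4550 and 4401 were higher in these pairs, with medians of 0.01, −0.03 and −0.03. In 9 of the 19 the siDerl1 sample was higher in all 3 pairs, where 15.8% of all genes tested were, and in 0 of 19 was it lower in all 3, where 22.1% of all genes were. The differences were small, and the enzymes share regulators and samples, so they are not independent of one another. The count of 18 was 17 with a pseudocount of 0.1, and 19 with median-of-ratios scaling or with the samples numbered 2 and 3 alone. It was 10 without siControl sample 1, 12 without siDerl1 sample 3 and 13 without siDerl1 sample 2. Without siControl sample 2 or 3 it was 18, and without siDerl1 sample 1 it was 19. The share of all genes that were higher is not given for these other fits, so their counts have no background beside them. Beside these values, the oligodendrocyte markers, from a lineage rich in sterol synthesis, had a median log2 fold change of 0.04 over the 4 tested, with 3 higher in siDerl1 NSCs. The 4 astrocyte markers tested had a median of 0.44, with 4 higher, among them *Gfap*, which was at 47.0, 27.7 and 28.9 TPM in siControl and at 66.3, 47.5 and 45.3 TPM in siDerl1 NSCs (adjusted p = 0.704 from limma, 0.0219 with the block). Of the stem cell markers 3 of 6 tested were higher, with a median of −0.0035, and of the neuron markers 2 of 4, with a median of 0.07. Among them *Nes* and *Dcx* were lower without overlap, with log2 fold changes of −0.26 and −0.42, and *Tubb3* was higher without overlap, with 0.21 (adjusted p = 0.704, 0.704 and 0.763 from limma, and 0.0899, 0.205 and 0.307 with the block). In these bulk samples, fewer cells of a type and less RNA per cell cannot be told apart. The part of these markers in the sterol values was not tested.

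**Figure D3:**
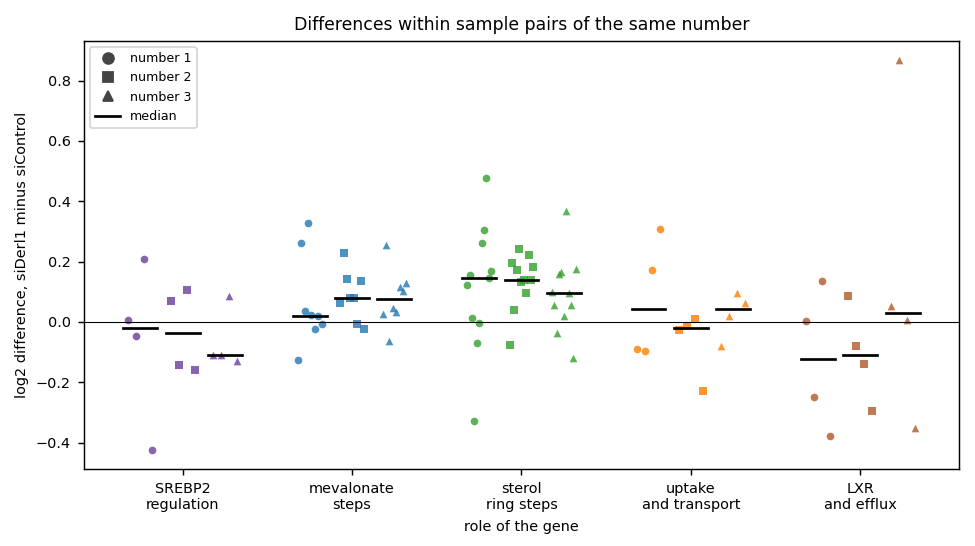
Log2 difference, siDerl1 minus siControl, in the sample pairs of number 1 (circles), 2 (squares) and 3 (triangles) for the genes of each role, with the median of each pair as a black line. The medians of the mevalonate steps and of the sterol ring steps lie above 0 in all 3 pairs, and those of the other roles change sign or lie below 0.

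The 4 genes of uptake and transport showed no shared direction, with 2 of 4 higher and the median of their log2 fold changes at 0.01. *Npc1* (NM_153624), the lysosomal membrane protein that exports cholesterol, was at 27.4, 29.4 and 31.9 TPM in siControl and at 25.7, 28.9 and 30.2 TPM in siDerl1 NSCs. The pairs differed by −0.09, −0.03 and −0.08 on the log2 scale, while the groups overlapped. *Npc2*, its soluble partner in the lysosome, lay between 211 and 247 TPM over all samples, with a log2 fold change of −0.03. *Stard4* (NM_001106159), which carries sterol through the cytosol, was at 25.7, 26.5 and 25.6 TPM in siControl and at 29.1, 26.7 and 27.5 TPM in siDerl1 NSCs. The groups did not overlap, but the lowest siDerl1 value was close to the highest siControl value (log2 fold change 0.09, 95% interval −0.10 to 0.29). *Mylip* was at 13.3, 15.5 and 10.7 TPM in siControl and at 16.8, 13.1 and 11.2 TPM in siDerl1 NSCs. Its pairs had both signs.

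Of the LXR and efflux genes, *Abcg1* was lower without overlap of the groups, as were 8.52% of all genes. *Abca1* did not differ in a shared direction. *Abcg1* (NM_053502), which moves cholesterol out to lipoprotein particles, was at 22.6, 19.5 and 22.9 TPM in siControl and at 17.2, 15.7 and 17.8 TPM in siDerl1 NSCs. Every siDerl1 value was below every siControl value, and the means were 21.7 ± 1.88 and 16.9 ± 1.06 TPM (SD, n = 3 each), a ratio of 0.779. The log2 fold change was −0.34 (95% interval −0.60 to −0.09), with pairs of −0.38, −0.30 and −0.35. Its adjusted p from limma was 0.704, and 0.166 with the block, the lowest over the alternatives, so it did not pass. *Abca1* (NM_178095), which loads cholesterol onto lipid-poor apolipoproteins, was at 63.1, 55.2 and 57.7 TPM in siControl and at 69.5, 50.0 and 57.9 TPM in siDerl1 NSCs. These groups overlapped, and the log2 fold change was 0.00 (95% interval −0.29 to 0.29). The ratio of *Abca1* to *Abcg1* within a sample was 2.79, 2.82 and 2.51 in siControl and 4.04, 3.18 and 3.26 in siDerl1 NSCs, without overlap. This ratio holds the *Abcg1* values given above and is no separate result. *Nr1h2* (NM_031626) was at 117, 110 and 114 TPM in the siControl samples. In the siDerl1 samples it was at 118, 117 and 118 TPM, and the groups overlapped. This was a log2 fold change of 0.05 (95% interval −0.09 to 0.18). *Nr1h3* was at 0.95, 0.84 and 0.88 TPM in siControl and at 0.64, 0.74 and 2.43 TPM in the siDerl1 samples. Its log2 fold change of 0.18 rests on siDerl1 sample 3.

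A list of 39 further sterol genes, which are no part of the 31, was read in the same way. Of these 36 were found and 31 tested. Their median was −0.02 on the log2 scale, with 15 of 31 higher in siDerl1 NSCs. At an unadjusted p under 0.05, *Osbpl2* was higher (1 of 31, against 2.67% of all genes) and *Rxra* lower (1 of 31, against 4.03%). With the block 4 were higher and 3 lower, against 6.84% and 8.88% of all genes, and none passed after adjustment. *Osbpl2*, an oxysterol-binding protein family member, went from a mean of 45.1 to 51.8 TPM, 0.20 on the log2 scale (limma, adjusted p = 0.713). *Rxra*, which encodes the retinoid X receptor that pairs with LXR, was at 85.9, 69.5 and 66.7 TPM in siControl and at 65.6, 60.7 and 58.2 TPM in siDerl1 NSCs. The groups did not overlap (log2 fold change −0.26, adjusted p = 0.740 from limma, 0.144 with the block). *Srebf1*, the other SREBP gene and itself a target of LXR, was at 2.58, 1.57 and 1.63 TPM in siControl and at 1.21, 1.07 and 0.89 TPM in siDerl1 NSCs. These levels are near the filter of 1 TPM (unadjusted p = 0.0707 and adjusted p = 0.763 from limma). Of the LXR targets named above, *Abcg1* had a log2 fold change of −0.34, *Abca1* of 0.00 and *Mylip* of 0.05.

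Differences by sample number were tested next. In an F-test of the number with the group as a covariate, 26 of the 31 did not pass and 5 had an adjusted p under 0.05 from limma, where 10.6% of all genes tested did. Of the 19 enzymes, 13 had both samples numbered 1 below all the other 4, where 17.0% of all genes did, and for 1, *Lbr*, both were above them, where 15.7% of all genes did. With median-of-ratios scaling the count of 13 was 11. The median difference of samples 2 and 3 from sample 1 over the 19 enzymes was 0.20 in siControl and 0.19 in siDerl1 NSCs on the log2 scale, beside 0.02 and −0.01 for all genes. Between samples 3 and 2 it was 0.01 and −0.04. What the number stands for (a culture, a day or a run) is not given in the sources used here. The count of 5 depended on the fit: it was 3 without the filter on low values (4.61% of all genes in that fit) or with median-of-ratios scaling (9.58%), and 0 without an intensity trend (2.44%). It was 1 without siDerl1 sample 3 (5.93%), 2 without siControl sample 3 (7.12%) or siDerl1 sample 2 (11.1%), 3 without siControl sample 2 (10.6%) and 8 without siDerl1 sample 1 (14.6%).

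The 5 genes were *Tm7sf2*, *Mvd*, *Cyp51*, *Fdps* and *Insig2*. *Tm7sf2* (NM_001013071), a sterol reductase of the ER, was at 26.7, 44.5 and 49.5 TPM in siControl samples 1, 2 and 3 and at 21.0, 50.2 and 55.5 TPM in siDerl1 samples 1, 2 and 3 (adjusted p = 0.00156 from limma for the number). *Mvd*, which makes isopentenyl diphosphate, was at 73.0, 92.6 and 92.2 TPM in siControl and at 74.2, 97.9 and 94.4 TPM in siDerl1 NSCs (adjusted p = 0.0173 from limma). *Cyp51*, which removes a methyl group of lanosterol, was at 268, 321 and 325 TPM in siControl and at 271, 331 and 317 TPM in siDerl1 NSCs (adjusted p = 0.0216 from limma). *Fdps* was at 536, 602 and 610 TPM in siControl and at 543, 661 and 655 TPM in siDerl1 NSCs (adjusted p = 0.0366 from limma). In these 4 enzymes the samples numbered 1 were the lowest of both groups. In *Insig2* the sample numbered 2 was instead the highest of each group (adjusted p = 0.0443 from limma).

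*Lbr* and *Tm7sf2* encode proteins that catalyse the same reduction of the sterol ring, *Lbr* at the nuclear envelope. They moved in opposite directions with the sample number. *Lbr* was at 46.3 and 44.0 TPM in the samples numbered 1 and between 32.3 and 38.4 TPM in the others (adjusted p = 0.0841 from limma for the number, so it did not pass). The ratio of *Tm7sf2* to *Lbr* was 0.576, 1.37 and 1.52 in siControl samples 1, 2 and 3 and 0.478, 1.31 and 1.51 in siDerl1 samples 1, 2 and 3. In both groups it was below 1 in the sample numbered 1 and above 1 in the others. Of the efflux genes, *Abca1* was highest in the samples numbered 1, at 63.1 and 69.5 TPM, against 50.0 to 57.9 TPM in the others, and did not pass (adjusted p = 0.109 from limma for the number). The summed oligodendrocyte markers were also highest in the samples numbered 1, at 1781 and 1912 TPM, and lay between 1495 and 1743 TPM in the other 4. The summed astrocyte markers were at 731 and 781 TPM there and between 493 and 524 TPM in the other 4, most of it *S100b*, at 679 and 708 TPM there. Among single markers that passed the test of the number, *S100b*, *Gfap*, *Fabp7*, *Sox10* and *Sox2* were highest of each group in the samples numbered 1 (adjusted p = 0.000172, 0.00629, 0.00284, 0.0074 and 0.0396 from limma). *Vim* and *Slc1a2*, the latter also an astrocyte marker, were lowest there (adjusted p = 0.000212 and 0.0414 from limma), and *Gja1* of the same list was the lowest of each group, at 3.70 and 5.32 TPM, without passing (adjusted p = 0.254 from limma). *Hes1* was highest in the samples numbered 3 (adjusted p = 0.0335 from limma). Their part in the difference between the numbers was not tested.

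**Figure D4:**
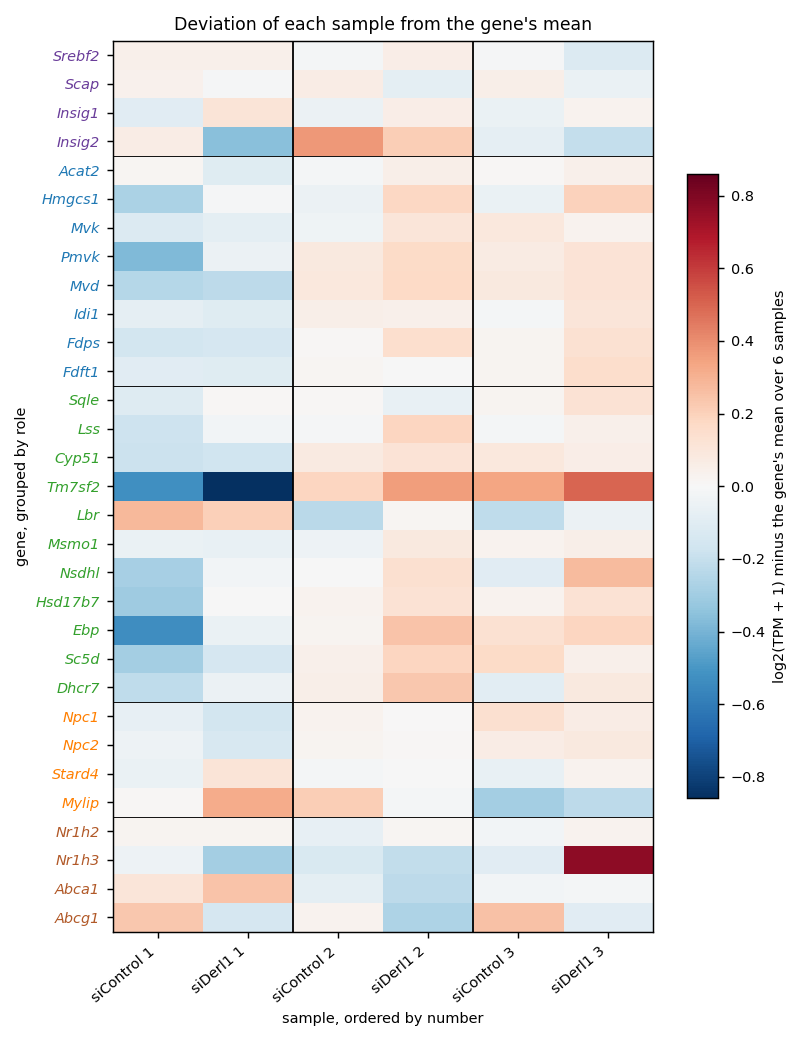
Deviation of each sample from the mean of the gene over the 6 samples, on log2(TPM + 1), with samples ordered by number (vertical lines part the numbers) and genes by role. Both columns of number 1 are blue, that is below the mean, for most enzymes and red for *Lbr*, and *Tm7sf2* and *Nr1h3* show the widest deviations.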

How the data were processed

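Groups and sample numbers were taken from the sample labels. The authors sequenced strand-specific libraries of poly(A) RNA on an Illumina HiSeq X. Per the submitters' processing notes, reads were trimmed (Trimmomatic 0.39), aligned to rn6 (STAR 2.7.3a) and quantified (RSEM 1.3.2). The deposited values are TPM with 2 decimals, as shares of a fixed sum. Depth is therefore unknown, and counting error cannot be stated. The authors' own test was edgeR's, on values not used here.

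The groups were compared with limma 3.58.1 in R 4.3.3 (lmFit and eBayes with an intensity trend) on log2(TPM + 1), keeping the 10331 genes whose mean TPM reached 1, with Benjamini-Hochberg adjustment over all of them. Fold changes on this scale understate the change of low genes. The sample number was tested with limma's F-test beside the group. The 31 genes and all lists were chosen with earlier results of these data known, so no p adjusted over a list is given. All 31 genes are named, with every sample's value for those whose groups do not overlap, those that pass an unadjusted p under 0.05 without the block or the test of the number, and the first of each role. *Nsdhl*, *Dhcr7*, *Lss*, *Ebp*, *Mylip*, *Abca1*, *Nr1h3*, *Lbr*, *Srebf1* and *Gfap*, and the ratios within a sample, were chosen after their values were seen. The fits were tested on simulated data. Alternatives were each sample left out in turn, the sample number as a block, median-of-ratios scaling, no intensity trend, a pseudocount of 0.1, and the filter on low values dropped or raised to 5 TPM. The samples numbered 2 and 3 alone, and the same scaling for the counts over pairs and numbers, were added after the data were seen.

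Deviations from the group means correlated at 0.70, 0.35 and 0.51 between siControl and siDerl1 samples of numbers 1, 2 and 3, across genes, which are not independent. The correlations were −0.59 to −0.41 between number 1 and other numbers, and 0.34 and 0.25 between numbers 2 and 3, so number 1 stands apart while 2 and 3 are hardly told from each other. Every pair of the same number was above 0.1, so the numbers were taken to pair the samples. The crossed pairs of numbers 2 and 3 were above 0.1 too, so this check cannot tell 2 from 3. For those numbers the pairing rests on the shared numbers in the labels. Promoter sequences are RefSeq's for GRCr8, matched by symbol, since the reads were mapped to another build. Paralogs can share reads, which RSEM divides between them. 1 further cell type marker is not reported here.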

Additional observations from a re-analysis of the deposited data

How the results depend on the processing

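No sterol gene passed an adjusted p under 0.05 from limma for the siRNA in any of the fits, and *Derl1* passed with the replicate block (log2 fold change −1.03) and with the samples numbered 2 and 3 alone (−0.83). The median log2 fold change of the synthesis enzymes lay between 0.0061 and 0.17 with 1 sample left out. It did not change sign, and that of the efflux genes, which is near 0, did. At an unadjusted p under 0.05, 6 genes were higher and 2 lower with the replicate block (6.84% and 8.88% of all genes). Without an intensity trend 1 was higher (2.87%). With 1 sample left out there were 0 (without siDerl1 sample 2, 1.54%) to 4 (without siDerl1 sample 1, 3.24%) higher. There was 1 without siControl sample 1 (2.64%), siControl sample 3 (2.14%) or siDerl1 sample 3 (2.83%). There were 0 (without siControl sample 3, 2.86%) to 1 lower, where 2.21% to 4.88% of all genes were. Past the limits of the study 0 to 1 were lower, where 1.11% to 2.44% of all genes were, and none was higher. Without siDerl1 sample 2 the gene past them was *Insig2* (−0.40) and not *Abcg1*. Groups did not overlap for 5 higher genes with median-of-ratios scaling (6.34% of all genes), 3 (without siControl sample 3, 8.84%) to 14 (without siDerl1 sample 1, 11.1%) with 1 sample left out and 16 with the samples numbered 2 and 3 alone (16.3%). For lower genes this was 2, 2 to 3 and 2 (6.77%, 11.5% to 17.9% and 26.5% of all genes). Fewer samples make non-overlap more frequent in all genes. By sample number there were 3 calls without a filter (4.61% of all genes) and with median-of-ratios scaling (9.58%), 0 without an intensity trend (2.44%) and 1 (5.93%) to 8 (14.6%) with 1 sample left out. The sign of 14 of the 31 genes changed in at least 1 fit and that of 17 did not. Those that changed with 1 sample left out ranged as follows on the log2 scale: *Srebf2* −0.043 to 0.045, *Acat2* −0.039 to 0.038, *Mvk* −0.010 to 0.10, *Pmvk* −0.0013 to 0.23, *Mvd* −0.067 to 0.17, *Idi1* −0.015 to 0.087, *Fdft1* −0.035 to 0.092, *Sqle* −0.00054 to 0.093, *Cyp51* −0.083 to 0.091, *Tm7sf2* −0.26 to 0.43, *Sc5d* −0.078 to 0.15, *Npc2* −0.080 to 0.031, *Mylip* −0.10 to 0.17, *Abca1* −0.12 to 0.11. Other changes of sign were those of *Srebf2* (0.0063) and *Acat2* (0.0063) with median-of-ratios scaling and of *Tm7sf2* (−0.00077) with a pseudocount of 0.1. With the samples numbered 2 and 3 alone, *Acat2* (0.045), *Npc2* (0.0033), *Mylip* (−0.083) and *Abca1* (−0.066) changed sign. *Nr1h3* was under the filter on low values in 2 of the fits and has no value there. The cause was not tested. Depth is unknown, and 3 samples a group limit what could be detected.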
